A study of Mus musculus with 6 samples.

Results

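The clustered histone genes of the mouse were examined in bone cells from control and dexamethasone-treated mice. The members are the genes whose symbol in the GENCODE M21 annotation begins with Hist1h, Hist2h, Hist3h or Hist4h. The annotation holds 70 such genes, the deposited table lists 60 of them among its 29616 genes, and 35 of those averaged 10 normalized counts or more across the 6 libraries and were tested, as were 17442 genes in all. A normalized count is the number of reads of a gene divided by a size factor of its library. The cluster on chromosome 13 holds 56 of the members, of which 31 were tested, that on chromosome 3 holds 10 with 3 tested, that on chromosome 11 holds 3 with 1 tested, and 1 gene on chromosome 6 was not tested. The rule uses only gene names, and no measured value entered it.

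The study asked how glucocorticoid treatment alters osteoblast-lineage cells in bone loss. RNA was sequenced from 3 control libraries and 3 libraries of dexamethasone-treated mice. Dexamethasone is a glucocorticoid drug, and these mice received 0.08 µg/g each day over 4 weeks, starting at 8 weeks of age. All mice were of the C57BL/6 strain, and no transgene is named in the labels of these libraries. The labels call the material bone cells, whereas the study's text describes Osteocalcin-positive cells isolated from bones after removal of the marrow. The labels call the groups Control and dexamethasone treated and do not say what the control mice of these libraries received. The design text calls the libraries biological replicates, but nothing says whether a library held 1 mouse or several, so the p-values measure the spread between these libraries.

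Histones are the proteins around which DNA is wound in the nucleus. Histones H3 and H4 form the centre of each nucleosome, dimers of H2A and H2B complete it, and the linker histone H1 binds the DNA where it enters and leaves. Most of these proteins come from gene copies that lie side by side in a few clusters, are used mainly while DNA is replicated, lack introns and give mRNAs that end in a conserved stem-loop in place of a poly(A) tail. The stem-loop is bound by the stem-loop binding protein, which the gene Slbp encodes and which guides 3′ end processing, translation and decay of these mRNAs. When replication stops, cells quickly degrade the mRNAs. Some of the genes also give longer, polyadenylated transcripts that run past the stem-loop, mainly in cells that no longer divide. The libraries were made with a kit for poly(A)-bearing mRNA, so transcripts of the second kind are the ones that it is made to capture.

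The stem-loops of the members are shown first because they mark these mRNAs. The stem-loop letters, a stem of 6 bases on each side of a loop of 4 bases, were found in the annotated exons of 46 of the 70 members and of 0.243% of 21834 other protein-coding genes. In the following stretches, read 5′ to 3′ from the GENCODE M21 transcripts, the capitals mark stem and loop and the lower case letters the bases beside them.

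Hist1h1c: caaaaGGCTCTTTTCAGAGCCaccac
Hist1h2ac: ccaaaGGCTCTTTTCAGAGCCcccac
Hist1h2ad: acaaaGGCTCTTTTCAGAGCCatcca
Hist1h2ao: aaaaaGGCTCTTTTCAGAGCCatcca
Hist1h2bg: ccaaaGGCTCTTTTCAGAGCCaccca
Hist1h3d: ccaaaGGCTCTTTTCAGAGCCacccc
Hist1h4h: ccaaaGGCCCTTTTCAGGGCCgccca
Hist1h4i: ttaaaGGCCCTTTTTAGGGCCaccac

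Hist1h1c, Hist1h2ac, Hist1h2ad, Hist1h2bg and Hist1h3d, all of which fell, and Hist1h2ao, which rose, carried the same capital letters. The H4 genes shown had other stem letters. The annotated exons of 23 members ended within 100 bases after the stem-loop, those of 23 members ran further, and 24 members had no match. The limit of 100 bases was chosen after the sequences were seen. Hist1h1c has 840 annotated bases after its stem-loop, Hist1h2ac 2010 and Hist1h4i 330, whereas Hist1h2ad has 42 and Hist1h2ao 31. Absence of a match says only that these letters are not in the annotated exons, and Hist1h2bc and Hist2h2be, both with many reads, were among the members without one.

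Outside H1, most genes within a class share long stretches of the same sequence, which limits how reads can be assigned. For each member, the share of its 75-base windows that occur in no other annotated transcript was computed. In 5 members every window was found in no other gene, in 5 members none was, and 32 of the 70 members had less than 50% such windows. The windows shared by the most members of a class are given below for H2A, H3 and H4. They lie in the transcripts of 14 of 20 H2A genes, all 12 H3 genes and 10 of 13 H4 genes.

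H2A: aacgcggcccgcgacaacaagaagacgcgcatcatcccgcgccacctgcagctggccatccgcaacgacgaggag
H3: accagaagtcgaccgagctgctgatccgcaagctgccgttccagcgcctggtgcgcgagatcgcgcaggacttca
H4: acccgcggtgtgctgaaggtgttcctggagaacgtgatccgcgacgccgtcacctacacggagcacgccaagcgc

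A read that lies wholly inside one of these windows cannot be given to 1 member. Counting by STAR leaves out reads that align to several places, so such reads are missing from the table, while reads over the differing bases and ends remain. Of the 10 members that the table does not list, 7 had less than 50% unique windows. Among them were Hist2h2aa1, Hist2h2aa2, Hist2h2bb, Hist2h3b and Hist2h3c1, all with 0% unique windows. The other unlisted members were Hist1h2aa, Hist1h2al, Hist1h2ba, Hist1h2br and Hist1h4b. Every listed gene had at least 3 reads over the 6 libraries.

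As a group, the clustered histone genes gave far fewer reads with dexamethasone. The members held 15954, 16494 and 17595 reads in control replicates 1, 2 and 3, and 1864, 1655 and 1738 reads in dexamethasone replicates 1, 2 and 3. The libraries held 72596611 to 89910728 reads in all. The summed level was 15416 ± 747 normalized counts (SD, n = 3) in the controls and 1868 ± 133 (SD, n = 3) with dexamethasone, a ratio of 8.25, and the groups did not overlap. No p-value is given for sums. In RNA of a cell mixture, fewer cells of a type and less RNA per cell cannot be told apart.

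A pair of genes carried most of this total. Hist1h1c and Hist1h2bc together held 72.5 to 73.1% of the member total in the control libraries and 41.4 to 43.6% in the dexamethasone libraries. Without both genes, the sum was 4187 ± 197 (SD, n = 3) against 1075 ± 96.6 (SD, n = 3) normalized counts, a ratio of 3.89, and the groups still did not overlap.

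**Figure D1:**
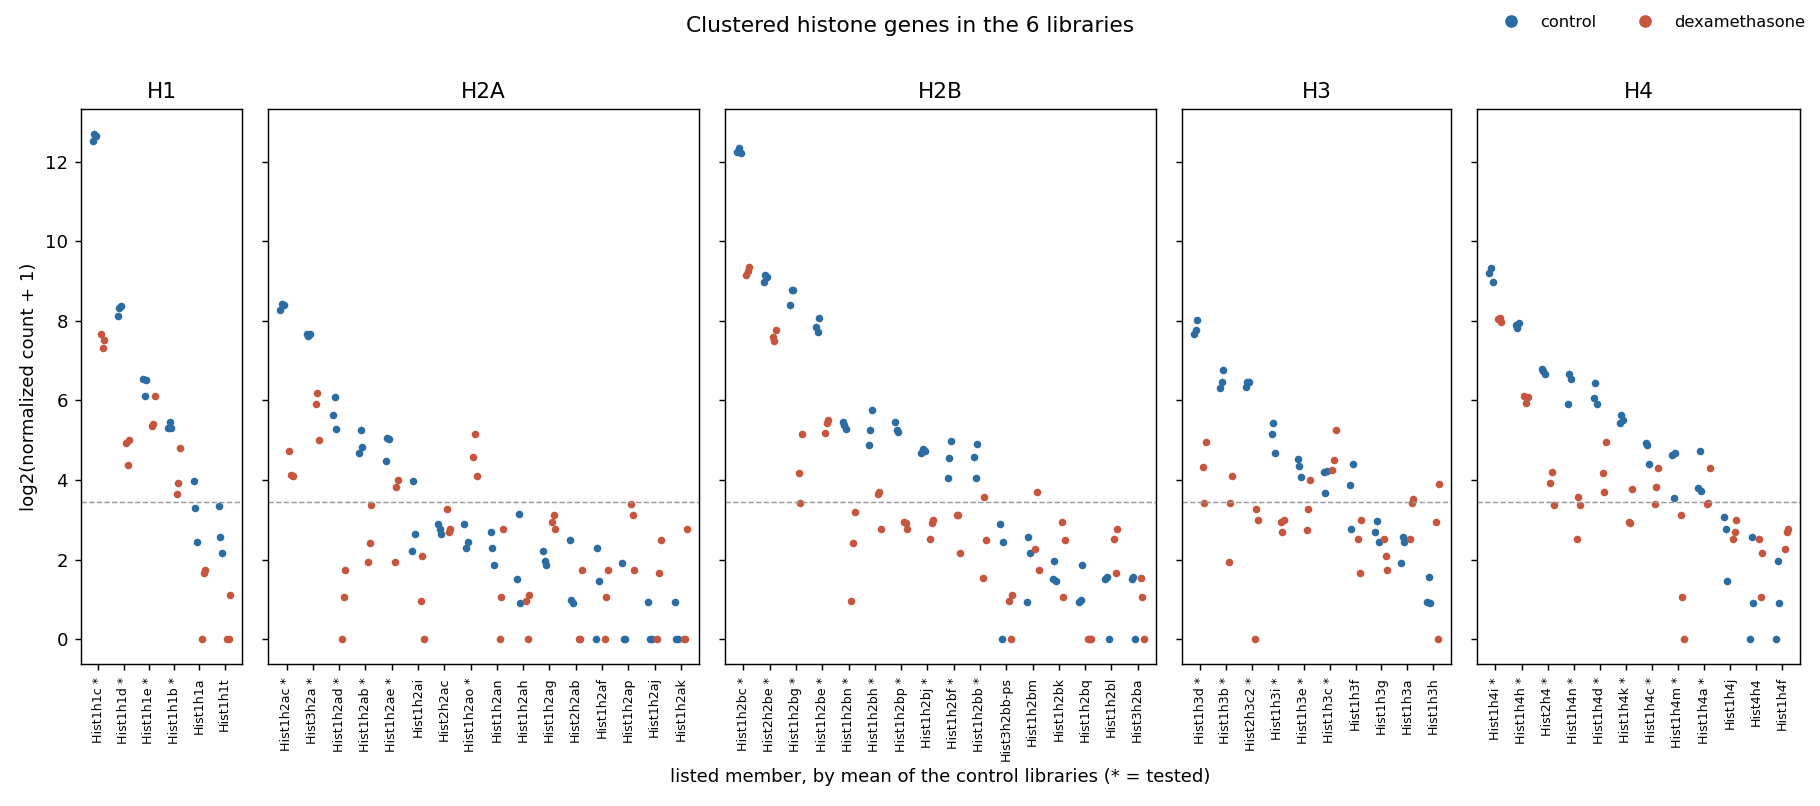
Level of each of the 60 listed members in the 6 libraries, as log2(normalized count + 1) on the y axis, by class and in order of the control mean on the x axis. Blue points are the 3 control libraries and red points the 3 dexamethasone libraries; asterisks mark the 35 tested members and the dashed line a normalized count of 10. Hist1h1c and Hist1h2bc stand above the other members in the controls, and Hist1h2ao is the tested member whose red points all lie above its blue points by the widest margin.

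Of the 35 tested members, 29 fell with dexamethasone, 1 rose and 5 were not called, where a call needed an adjusted p under 0.05 in limma and a log2 difference of 1 or more in either direction. Over all 17442 tested genes, 10.6% were called lower and 11.7% higher by the same rule. The median log2 fold change of the 35 members was -2.22, beside 0.00071 over all tested genes. By the adjusted p alone, 32 members were lower and 1 higher, where 35.2% of all tested genes were lower and 37.2% higher.

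These counts are affected by the filter, because a gene that is high in 1 group passes it more easily. Of the tested members, 15 had a dexamethasone mean under 10 and passed through their control libraries, and Hist1h2ao passed through its dexamethasone libraries. Among the 19 members with both group means at 10 or more, 15 fell, 0 rose by limma at the same rule and 4 were not called. When all 60 listed members were fitted with no filter, 33 fell, 3 rose and 24 were not called, beside 9.10% of all listed genes called lower and 8.88% higher. The calls beyond the tested members were those of Hist1h1a, Hist1h1t, Hist1h2ai and Hist1h3f as lower and of Hist1h2ap and Hist1h4f as higher. The 25 listed members that were not tested had means from 0.755 to 8.96 normalized counts, 12 of them lower and 13 higher with dexamethasone. Counted by position alone, 35 of the 60 members had every dexamethasone library below every control library and 5 the reverse, beside 25.9% and 26.4% of all listed genes. The groups overlapped for the other 20.

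**Figure D2:**
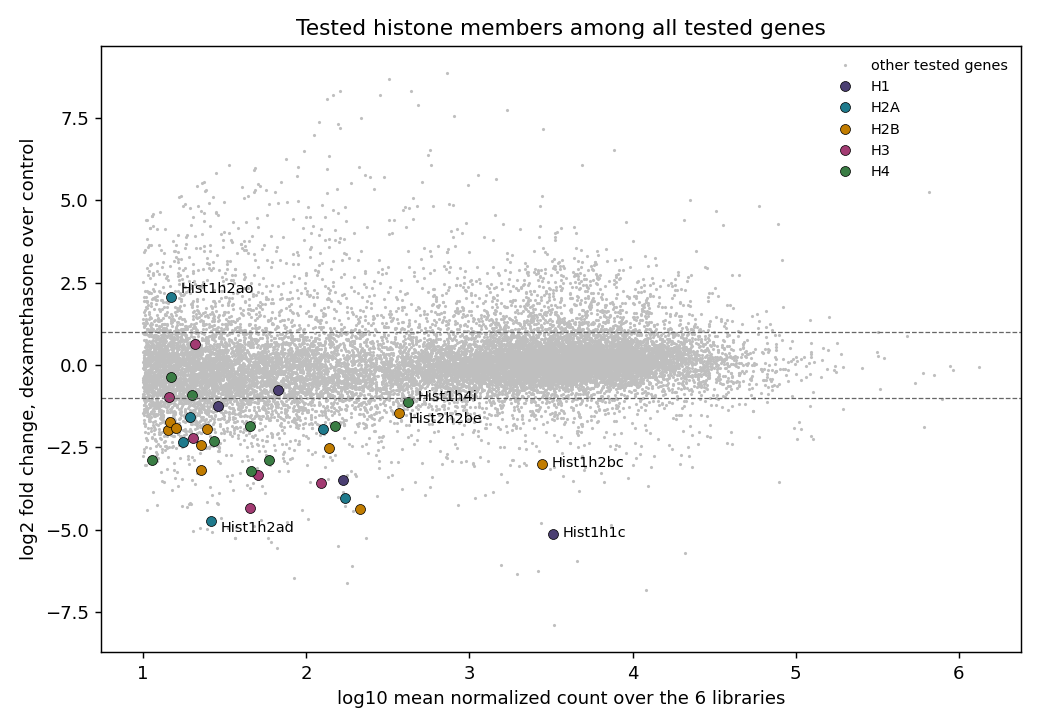
Fold change of every tested gene against its mean level: the x axis is the log10 mean normalized count over the 6 libraries and the y axis the log2 fold change of dexamethasone over control. Coloured points are the 35 tested members by class, grey points the other tested genes, and dashed lines the fold change limits of -1 and 1; 29 of the members lie below the lower line and Hist1h2ao lies above the upper one.

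Summed by class, the linker histones had the deepest fall. Hist1h1c (ENSMUSG00000036181, also named H1f2), which encodes the H1.2 protein, had 5854, 6604 and 6455 normalized counts in the controls and 203, 158 and 181 with dexamethasone. All dexamethasone libraries were thus far below the lowest control. Its log2 fold change, called log2 change here, was -5.12 (standard error, SE, 0.0706, adjusted p = 1.8e-26 by limma). Hist1h1d, which encodes H1.3, had 277, 320.0 and 331 normalized counts in the controls and 29.6, 19.6 and 31.4 with dexamethasone, a log2 change of -3.50 (adjusted p = 2.87e-15, limma). Both genes are nearly free of shared windows, with 93.3% and 98.5% of their windows unique.

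The remaining linker histones moved less or were scarce. Hist1h1b, which encodes H1.5, fell from 40.1 ± 2.57 to 17.5 ± 8.16 normalized counts (SD, n = 3), a log2 change of -1.24 (adjusted p = 0.000717, limma). Hist1h1e, which encodes H1.4, had 91.8, 68.5 and 90.5 normalized counts in the controls and 40.1, 41.4 and 68.6 with dexamethasone. Its groups touched, since the third dexamethasone library was just above the second control library. The log2 change of -0.76 (adjusted p = 0.00236, limma) was short of the limit, and without dexamethasone replicate 3 it was -1.01. Other genes on the same strand, Hist1h2be among them, overlap 25.7% of the exon bases of Hist1h1e. Hist1h1a, which encodes H1.1, had 14.7, 8.81 and 4.39 normalized counts in the controls and 0, 2.18 and 2.33 with dexamethasone, and Hist1h1t, the testis H1, had 9.18, 4.89 and 3.52 against 0, 0 and 1.16. Neither gene passed the filter.

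The H1 sum was 6753 ± 409 normalized counts (SD, n = 3) in the controls and 277 ± 38.6 (SD, n = 3) with dexamethasone, a ratio of 24.4. Without Hist1h1c the ratio was 4.66, which was still the highest when each class was summed without its member of highest mean. Hist1h1c made up 93.4% of the H1 total in the controls and 65.6% with dexamethasone.

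The H2A genes showed both directions. Hist1h2ac (also named H2ac6) had 309, 341 and 334 normalized counts in the controls and 25.8, 16.4 and 16.3 with dexamethasone, a log2 change of -4.04 (SE 0.180, adjusted p = 3.2e-16 by limma). Hist1h2ad had 48.7, 66.5 and 37.8 normalized counts in the controls and 0, 1.09 and 2.33 with dexamethasone, so that it was nearly absent from the treated libraries. These values stand for 164 reads against 3 reads in total, and the ratio of reads, scaled for library size, was 47.5 with a 95% exact binomial interval of 16.0 to 233. The interval covers counting error only, as does the upper limit of 3 reads that a count of 0 allows. Its fitted log2 fold change was -4.73 (limma adjusted p = 2.74e-09), a value that depends on the added 1. Of the 75-base windows of Hist1h2ad, 34.5% occur in no other gene, and 15 other members share a window with it, so its count is uncertain. The antisense gene Gm44359 overlaps 24.1% of its exon bases.

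Hist3h2a, the only tested member of the cluster on chromosome 11, had 201, 197 and 204 normalized counts in the controls and 59.1, 71.9 and 31.4 with dexamethasone, a log2 change of -1.95 (adjusted p = 5.21e-09, limma). The gene Trim17 overlaps 33.0% of its exon bases on the same strand. Hist1h2ab and Hist1h2ae also fell, with log2 fold changes of -2.34 and -1.59. The call of Hist1h2ae was lost when dexamethasone replicate 1, its lowest library at 2.86 normalized counts, was left out and the log2 fold change became -0.94.

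Hist1h2ao (ENSMUSG00000094248, also named H2ac23) was the only tested member that rose. It had 6.43, 3.91 and 4.39 normalized counts in the controls and 22.9, 34.9 and 16.3 with dexamethasone, with no overlap. The log2 change was 2.08 (SE 0.408, adjusted p = 7.31e-05 by limma) and ranged from 1.80 to 2.33 as libraries were left out singly. Only 6.90% of its 75-base windows occur in no other gene, and 15 other members share a window with it, so the count of this gene is uncertain. The antisense gene Gm19658 overlaps 28.8% of its exon bases, and the strand setting of the count is not given in the sources used here.

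Of the 16 listed H2A genes, 10 were not tested, with means from 1.12 to 6.24 normalized counts. Hist1h2ap, with 2.75, 0 and 0 normalized counts in the controls and 9.54, 7.63 and 2.33 with dexamethasone, was called higher in the fit with no filter although its groups overlapped, and 7.35% of its windows were unique. The H2A sum was 673 ± 40.3 against 146 ± 22.2 normalized counts (SD, n = 3), a ratio of 4.62, and 2.73 without Hist1h2ac.

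All 10 tested H2B genes fell, beside 10.6% of all tested genes. Hist1h2bb, Hist1h2bf, Hist1h2bh, Hist1h2bj, Hist1h2bn and Hist1h2bp had dexamethasone means under 10 and passed the filter through their control libraries. That largely set their direction. Of the 16 listed H2B genes, 13 had a lower mean with dexamethasone and 3 a higher one. Hist1h2bc (ENSMUSG00000018102) had 4825, 5187 and 4762 normalized counts in the controls and 571, 609 and 655 with dexamethasone, a log2 change of -3.01 (SE 0.0523, adjusted p = 1.17e-24 by limma). Hist1h2bg had 337, 439 and 434 normalized counts in the controls and 17.2, 9.81 and 34.9 with dexamethasone, a log2 change of -4.39 (adjusted p = 1.27e-13, limma). The control libraries of both genes were several times above their treated libraries. Hist2h2be, a member of the chromosome 3 cluster with no shared window, had 499, 571 and 546 normalized counts in the controls and 191, 179.9 and 219 with dexamethasone. Its log2 change of -1.45 (adjusted p = 4.53e-13, limma) was the smallest fall among the tested H2B genes.

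The other H2B genes had lower counts. Hist1h2be fell from 236 ± 28.5 to 40.7 ± 4.72 normalized counts (SD, n = 3) and Hist1h2bn from 40.7 ± 2.71 to 4.48 ± 3.59 (SD, n = 3), with log2 fold changes of -2.51 and -3.19. For Hist1h2bb, Hist1h2bf, Hist1h2bh, Hist1h2bj and Hist1h2bp the log2 fold changes were -1.98, -1.74, -1.93, -1.92 and -2.44. Each of the 10 tested H2B genes had groups that did not overlap. Among all listed genes, 25.9% had every dexamethasone library below every control library. Of the 6 listed H2B genes that were not tested, Hist1h2bq had 1, 1 and 3 reads in the controls and 0 in the treated libraries, and Hist1h2bl was slightly higher in every treated library, at 1.84, 1.96 and 0 against 4.77, 2.18 and 5.81 normalized counts. The H2B sum was 6306 ± 267 against 924 ± 69.4 normalized counts (SD, n = 3), a ratio of 6.82, and 4.42 without Hist1h2bc.

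The tested H3 genes, from a class that shares a window throughout, divided into 4 that fell and 2 that were not called. Over all tested genes, 10.6% were called lower. Hist1h3b, Hist1h3i, Hist2h3c2 and the uncalled Hist1h3e had dexamethasone means under 10 and passed the filter through their control libraries. That largely set their direction. Hist1h3d had 204, 217 and 257 normalized counts in the controls and 19.1, 9.81 and 30.2 with dexamethasone, a log2 change of -3.58 (SE 0.256, adjusted p = 4.7e-12 by limma). Hist2h3c2, on chromosome 3, had 79.9, 88.1 and 87.9 normalized counts in the controls and 0, 8.72 and 6.98 with dexamethasone, a log2 change of -4.34 (adjusted p = 8.59e-08, limma). Its size rested partly on the library with 0 reads, since it was -3.29 without dexamethasone replicate 1. Hist1h3b had 79.0, 87.1 and 107 normalized counts in the controls and 2.86, 9.81 and 16.3 with dexamethasone, a log2 fold change of -3.35. Hist1h3i fell as well, with a log2 fold change of -2.22.

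Hist1h3c went against its class without passing the test. It had 17.4, 11.7 and 17.6 normalized counts in the controls and 18.1, 21.8 and 37.2 with dexamethasone, so that the treated libraries lay just above the controls. The log2 change was 0.64 (SE 0.331, adjusted p = 0.0841 by limma). Hist1h3e had a log2 change of -0.97 (adjusted p = 0.0274, limma), just short of the limit. Hist1h3f was the member just outside the filter, with a mean of 8.96, and Hist1h4m the one just inside, with a mean of 11.3. The H3 sum was 495 ± 41.1 against 99.8 ± 40.5 normalized counts (SD, n = 3), a ratio of 4.96, and 3.36 without Hist1h3d.

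With all listed members summed, the H4 genes fell least as a class. Hist1h4i (ENSMUSG00000060639) had 590.3, 641 and 504 normalized counts in the controls and 263, 270.3 and 252 with dexamethasone, a log2 change of -1.13 (SE 0.0882, adjusted p = 2.33e-11 by limma). Hist1h4h had 236, 226 and 246 normalized counts in the controls and 67.7, 60.0 and 67.4 with dexamethasone, a log2 change of -1.84 (adjusted p = 4.07e-12, limma). The values of both genes were tight within groups and far apart between them. Hist2h4, the only tested H4 gene of chromosome 3 and one with no shared window, had 109, 106 and 100.2 normalized counts in the controls and 14.3, 17.4 and 9.30 with dexamethasone, a log2 change of -2.89 (adjusted p = 1.06e-10, limma).

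Further falls in the H4 class were those of Hist1h4n, Hist1h4m, Hist1h4k and Hist1h4d, with log2 fold changes of -3.21, -2.90, -2.32 and -1.85. Hist1h4n had 16.6% unique windows and Hist1h4m fewer, so the split of their reads is uncertain. Hist1h4c and Hist1h4a were not called, with log2 fold changes of -0.90 (limma adjusted p = 0.0173) and -0.38 (limma adjusted p = 0.394). The groups of Hist1h4a overlapped, at 12.9, 25.4 and 12.3 against 9.54, 9.81 and 18.6 normalized counts. The H4 sum was 1189 ± 89.9 against 421 ± 12.3 normalized counts (SD, n = 3), a ratio of 2.83. In contrast with the other classes, this ratio was larger without its top gene Hist1h4i, at 3.85, and H2A and H3 without their top genes had smaller ratios, at 2.73 and 3.36.

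**Figure D3:**
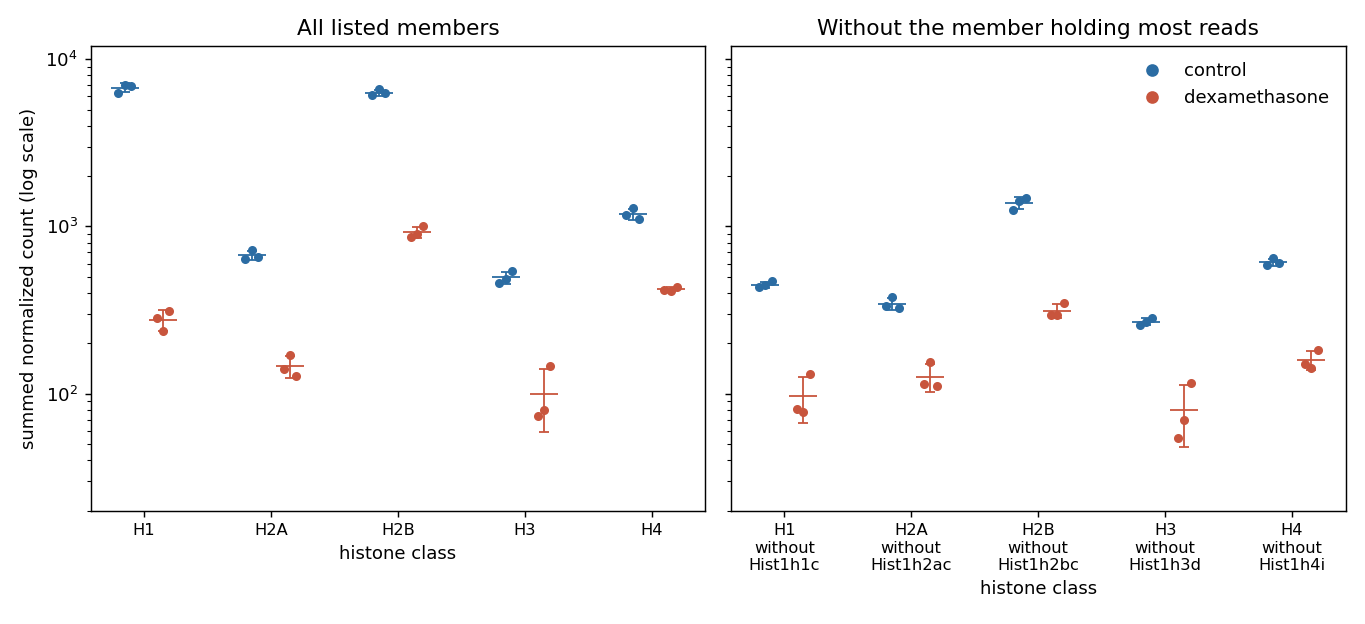
Summed normalized counts of each class per library on a log axis, for all listed members (left) and without the member of highest mean in the class (right). Points are the 3 control (blue) and 3 dexamethasone (red) libraries, horizontal bars the means and whiskers the SD; no groups overlap in either panel, and the gap for H1 shrinks from a ratio of 24.4 to 4.66 once Hist1h1c is left out.

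Because the classes fell by different amounts, their shares of the member total shifted. H1 made up 43.8% of it in the controls and 14.8% with dexamethasone, while H4 went from 7.72% to 22.6%. H2B went from 40.9% to 49.5%, H2A from 4.36% to 7.86% and H3 from 3.21% to 5.26%. These are shares of reads that could be assigned and not of histone mRNA molecules, since gene lengths and the lost multi-mapping reads differ between classes. In addition, mRNAs that end in the stem-loop without a poly(A) tail are not what the kit is made to capture.

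Levels were compared between genes per kilobase of annotated exon. In the controls, Hist1h2bc and Hist1h1c had 4260.2 and 4041 normalized counts per kilobase, followed by Hist1h4i at 795, Hist1h2bg at 653 and Hist1h4h at 502. With dexamethasone, Hist1h2bc still had the highest level at 529 per kilobase, followed by Hist1h4i at 360.4, Hist1h4h at 138 and Hist1h1c at 116. Hist1h1c thus went from a level close to that of Hist1h2bc to one below that of Hist1h4h. These levels were not scaled for reads lost in shared windows. Unique windows made up 93.3% in Hist1h1c, 72.9% in Hist1h2bc, 77.6% in Hist1h4i and 57.6% in Hist1h4h, so the comparison between genes is rough.

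Calls were also counted by the share of unique windows. A share above 50% does not free a gene of shared windows, since Hist1h2bg had 52.6% and shared a window with 14 other members. Of the 22 tested members with at least 50% unique windows, 18 fell and 0 rose by limma at the same rule. Over all tested genes, 10.6% were called lower and 11.7% higher. Both group means were 10 or more in 19 of the 22. Of the 13 tested members with less than 50% unique windows, 0 had both group means at 10 or more. They passed the filter through 1 group alone, which largely set their direction, so no count of calls over them is given. Hist1h1b, Hist2h2be and Hist2h4, which share no window with any other gene, all fell. The uniqueness was computed from annotated transcripts and not from the genome.

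**Figure D4:**
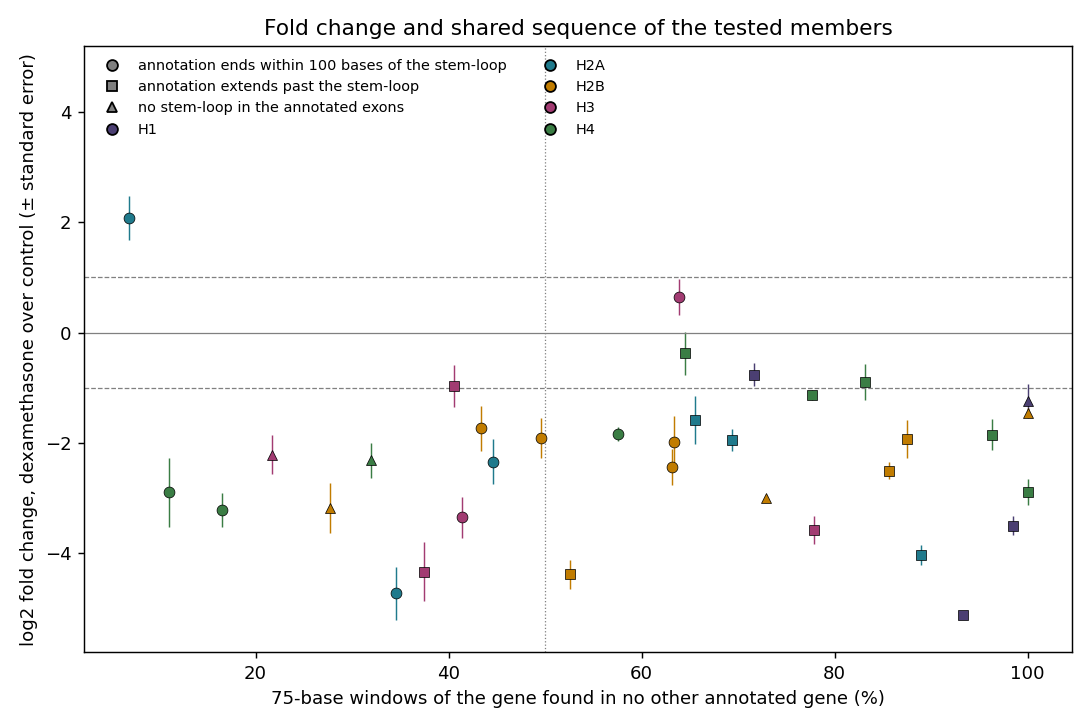
Log2 fold change of each tested member (y axis, with the standard error) against the percentage of its 75-base windows found in no other annotated gene (x axis). Colours give the class and symbols how far the annotation runs past the stem-loop. Of the 22 members right of the dotted line at 50%, 18 were called lower, beside 10.6% of all tested genes. The 13 left of it, with Hist1h2ao at 6.90%, all passed the filter through 1 group alone.

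The members were also grouped by the annotated 3′ end. The 22 listed members whose exons run more than 100 bases past the stem-loop fell from 9088 ± 523 to 784 ± 42.5 normalized counts in sum (SD, n = 3), a ratio of 11.6. The 20 listed members that end near the stem-loop went from 668 ± 38.8 to 214 ± 16.1 (SD, n = 3), a ratio of 3.11. The 18 without a match went from 5661 ± 277 to 869 ± 91.4 (SD, n = 3), a ratio of 6.51. Counts of calls by kind are not compared, because no more than 2 of the 12 tested members that end near the stem-loop, Hist1h3c and Hist1h4h, had both group means at 10 or more, beside 14 of 17 of the first kind and 3 of 6 of the third. Hist1h1c, at 6304 normalized counts in the controls and 181 with dexamethasone, made up most of the control sum of the first kind. Hist1h2bc, at 4925 and 612, made up most of that of the third. The ratios of these kinds thus rest largely on 1 gene each and do not rank the kinds.

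The promoters were read from RefSeq for 62 of the 70 members (build GRCm38.p6, 250 bases before to 50 bases after the start). They are shown for Hist1h1c and Hist1h2ac, which fell steeply, and for Hist1h2ao, which rose. Capitals mark the CCAAT box, the TATA box and the octamer, whose letters follow with the counts, searched on both strands. The positions are chr13:23738557-23738856 on the plus strand for Hist1h1c, chr13:23683910-23684209 on the minus strand for Hist1h2ac and chr13:21810117-21810416 on the plus strand for Hist1h2ao. All lie in the large cluster on chromosome 13.

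Hist1h1c: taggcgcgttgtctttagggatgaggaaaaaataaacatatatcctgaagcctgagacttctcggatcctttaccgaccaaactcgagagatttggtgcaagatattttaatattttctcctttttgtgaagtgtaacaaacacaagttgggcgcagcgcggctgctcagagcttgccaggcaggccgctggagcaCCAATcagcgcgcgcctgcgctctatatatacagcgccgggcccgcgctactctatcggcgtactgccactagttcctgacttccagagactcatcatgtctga
Hist1h2ac: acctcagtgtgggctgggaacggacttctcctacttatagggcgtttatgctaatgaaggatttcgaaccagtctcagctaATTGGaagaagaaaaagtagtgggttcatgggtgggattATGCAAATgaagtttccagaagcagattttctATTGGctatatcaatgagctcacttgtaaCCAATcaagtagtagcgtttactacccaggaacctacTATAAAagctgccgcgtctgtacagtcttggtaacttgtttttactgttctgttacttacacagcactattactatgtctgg
Hist1h2ao: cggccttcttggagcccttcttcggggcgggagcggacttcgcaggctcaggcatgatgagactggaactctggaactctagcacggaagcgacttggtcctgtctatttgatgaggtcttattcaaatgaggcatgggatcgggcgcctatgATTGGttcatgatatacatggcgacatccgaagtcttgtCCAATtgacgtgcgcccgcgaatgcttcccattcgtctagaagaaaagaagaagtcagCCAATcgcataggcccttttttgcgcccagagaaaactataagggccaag

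All of these promoters hold CCAAT, the letters bound by the factor NF-Y, and that of Hist1h2ac holds all of the searched motifs. Over the members, 85.5% of promoters held CCAAT, beside 37.4% of 32851 promoters in the table. The share was 100% for H1, H2A, H2B and H3, and 25% for H4. TATAAA, a form of the TATA box, was found in 56.5% of the members and 13.6% of all promoters. ATTTGCAT, the octamer bound by OCT1, was found in 38.9% of H2A and 43.8% of H2B promoters and in 0 of the H1, H3 and H4 promoters, beside 1.74% of all promoters. A match describes the letters only. The motifs searched do not set Hist1h2ao apart from Hist1h1c, since both promoters hold the CCAAT box and neither of the others.

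The genes that serve the clustered histone mRNAs were examined next. Slbp, which encodes the stem-loop binding protein, had 3232, 3398 and 3346 normalized counts in the controls and 11951, 11596 and 12126 with dexamethasone, a log2 change of 1.84 (adjusted p = 1.46e-23, limma). Its libraries did not overlap. Of the 16 genes listed for transcription and 3′ end processing of histone mRNA, 5 rose and 0 fell by limma at the same rule, beside 11.7% and 10.6% of all tested genes. By the adjusted p alone, 12 were higher and 1 lower, beside 37.2% and 35.2% of all tested genes. The others that rose were Lsm11 (log2 fold change 1.28), a part of the U7 particle that cuts histone transcripts, Casp8ap2 (1.16), a protein of the histone locus body, Cstf2 (1.08), a cleavage factor, and Srrt (1.05), which links the RNA cap to processing. Rescaled to the same total, Cstf2 and Srrt were at 0.97 and 0.94, short of the limit, and with quantile normalization Casp8ap2, Cstf2 and Srrt were at 0.97, 0.90 and 0.86. Npat, the coactivator of histone gene transcription, had a log2 fold change of 0.81.

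Of the 8 genes listed for histone mRNA decay, 1 rose and 0 fell by limma at the same rule, a share near the 11.7% of all tested genes that were higher. By the adjusted p alone, 6 were higher and 1 lower, beside 37.2% and 35.2% of all tested genes. Eri1, an exonuclease that trims the histone stem-loop, had 3911, 4165 and 4173 normalized counts in the controls and 12954, 12892 and 13242 with dexamethasone, a log2 change of 1.67 (adjusted p = 1.09e-22, limma). Upf1, which starts this decay, had one of 0.44.

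The histone genes outside the clusters, whose mRNAs mostly carry poly(A) tails, included none that passed the test as lower. Of 10 tested, 3 rose and 0 fell by limma at the same rule, beside 11.7% and 10.6% of all tested genes. By the adjusted p alone, 6 were higher and 3 lower, beside 37.2% and 35.2%. Cenpa, the H3 of centromeres, rose from 1437 ± 78.7 to 5892 ± 376 normalized counts (SD, n = 3), a log2 fold change of 2.03. H2afx, the H2A that is phosphorylated at DNA breaks, and H2afz, which encodes H2A.Z, had log2 fold changes of 1.51 and 1.32. H3f3b, one of the genes for H3.3, had 47366 ± 1059.6 against 47752 ± 832 normalized counts (SD, n = 3) and a log2 change of 0.01 (adjusted p = 0.789, limma). H1f0, the linker histone of non-dividing cells, was at -0.34 and H3f3a at -0.50.

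The listed genes of DNA replication, with which these histones are usually made, all rose. The list was chosen with earlier results of these data known, so its count is not an independent check. For the 25 genes listed, 25 were called higher, beside 11.7% of all tested genes. Their log2 fold changes were between 1.48 and 3.57 with a median of 2.65. Mcm6, a subunit of the replicative helicase, had 5723, 6119.6 and 6108 normalized counts in the controls and 38442, 36976 and 38324 with dexamethasone. Rrm1 and Mcm4, the other listed genes of highest mean, had log2 fold changes of 1.96 and 2.62. Thus every listed replication gene was higher in the libraries in which the clustered histone genes were lower. The kit is made to capture poly(A)-bearing mRNA, so histone mRNAs that end in the stem-loop without a tail may be largely missing here. Whether those mRNAs changed was not tested. Among the 18 histone chaperones, 8 rose and 0 fell by limma at the same rule, beside 11.7% and 10.6% of all tested genes. By the adjusted p alone, 17 were higher and 0 lower, beside 37.2% and 35.2%. The median log2 fold change of the chaperones was 0.84. Npm1, Rbbp7 and Ssrp1 had log2 fold changes of 0.39, 0.74 and 1.15, and with quantile normalization Ssrp1 was at 0.98, short of the limit.

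**Figure D5:**
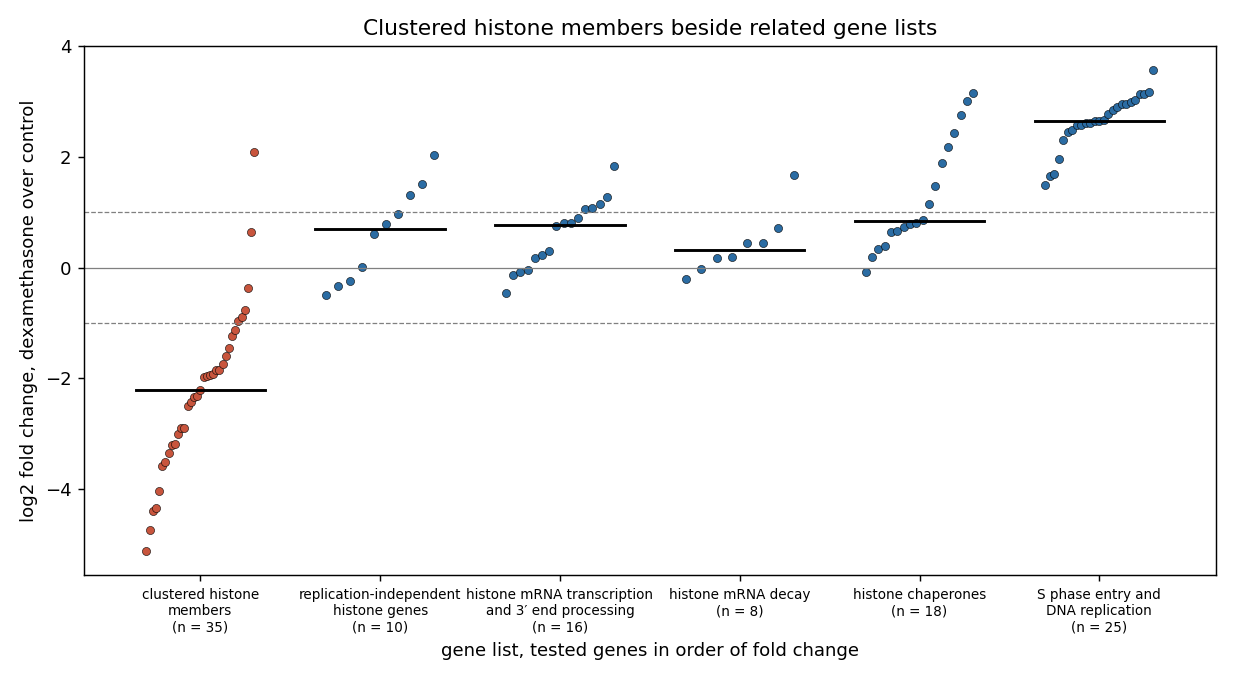
Log2 fold change of dexamethasone over control (y axis) for the tested clustered histone members (red) and for 5 related gene lists (blue), each point 1 gene in order of fold change, with black bars at the medians. The members have a median of -2.22, and the replication genes one of 2.65 with no gene below 1.48.

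The make-up of the cells was checked with marker lists, whose part in the results above was not tested. Of 11 osteoblast markers, 8 were called lower and 2, Spp1 and Dmp1, higher, beside 10.6% and 11.7% of all tested genes. The list's genes of highest mean were the bone matrix genes Col1a2 (log2 change -1.05, and just short of the limit with quantile normalization), Spp1 (5.25) and Col1a1 (-1.88). Osteocalcin (Bglap) itself had 98.2 to 122 normalized counts in the controls and 9.54 to 15.1 with dexamethasone. Bglap2, also on the osteoblast list, had 299.7 to 339 in the controls and 29.6 to 33.7 with dexamethasone. The list of 8 pan-hematopoietic markers summed to between 6712 and 6967 normalized counts in the controls and between 8112 and 8614 with dexamethasone, most of it from Arhgdib. Cd53 and Itgb2 were called higher and Coro1a and Laptm5 lower, and Ptprc, which defines these cells, had at most 5.81 normalized counts in any library. The 7 listed of 8 erythroid markers summed to between 30.5 and 52.3 over all libraries, mostly from Alas2 with Hbb-bs and Klf1 at means under 10, and the 4 listed of 5 germ cell markers to between 19.8 and 34.2, mostly from Sycp3 with Prm1 and Ddx4 at means under 10. The sum over the 8 listed of 9 macrophage and osteoclast markers ranged from 14111 to 14707 in the controls and from 9055 to 9658 with dexamethasone, mostly from Ctsk (log2 fold change -0.65), with Lyz2 going from 996 to 351 normalized counts and Cd68 at 1.78. The 7 listed of 8 endothelial markers summed to between 2168 and 2299 against between 3294 and 3895, mainly from Vwf (log2 fold change 0.76) and Kdr (0.25). Esam was at 1.20, and Cdh5 had at most 2.18 normalized counts in any library.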

How the data were processed

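RNA of 3 control and 3 dexamethasone libraries was sequenced by the authors from a stranded mRNA library kit. Alignment and counting of reads by gene were done by the authors with STAR 2.7.10a. What they deposited is a normalized signal and not raw counts, since each library was divided by its size factor from DESeq2 1.36.0. The submitters' processing notes name the genome build GRCm39. The annotation release and the strand setting are not given in the sources used here. Dividing by the value of 1 read gave a whole number, within 0.01 reads, for 100% of values, so the reads were recovered.

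The table lists genes by Ensembl identifier, and 28087 of 29616 had a symbol in GENCODE M21. Genes averaging 10 normalized counts or more were tested with limma 3.58.1 (R 4.3.3, mean-variance trend, two-sided) on log2(value + 1), with Benjamini-Hochberg adjustment over all of them. All fold changes are dexamethasone over control on this scale, which understates the change of low genes. Ratios of sums are of normalized counts, control over dexamethasone. The test was first checked on simulated data, and count tests of the recovered reads with edgeR 4.0.16 and with DESeq2 1.42.0 served as alternatives. Libraries of the same number were compared to see whether numbers pair them. Correlations of their deviations from the group means were -0.0999, -0.105 and -0.0199, so no pairing was used.

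The members and gene lists were chosen with earlier results of these data known. Genes named are the 3 members of highest mean and the 2 highest and 2 lowest fold changes of each class, all members called lower, the members beside the filter, the called genes of the lists of other histones and of histone mRNA processing and decay, and the 3 of highest mean of each other list. Unlisted members, Hist1h1a, Hist1h1t, Hist1h2ai, Hist1h2ap, Hist1h4f, Hist1h2bl, Hist1h2bq, Npat, Upf1, H3f3a, H3f3b, H1f0, Dmp1, Bglap, Bglap2, Coro1a, Laptm5, Ptprc, Csf1r, Mmp9, Ctss, Acp5, Ocstamp and Cdh5 were named after their values were seen.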

Additional observations from a re-analysis of the deposited data

How the results depend on the processing

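The direction of the result did not turn for any named member. Over 652 values of 35 tested members, 638 kept direction and call, 2 lost the call, 12 gained it and 0 reversed. Of these members, 15 passed the filter through their control libraries alone and Hist1h2ao through its dexamethasone libraries. That largely set their direction, so the lack of reversals is no check of it for them. The members called lower numbered 29, and 11 of the 11 tested at a mean of at least 100, 11 of the 13 tested with at least 10 normalized counts in every library, and 18 of 22 with at least 50% unique windows of 75 or of 50 bases. Fewer genes tested explain these lower counts by construction. Over all genes, 10.6% of 17442 were called lower at the main filter. At a mean of at least 100 these were 820 of 12021, and with at least 10 in every library 1255 of 15303. The count of all called genes was 3894, with 2170 at a mean of at least 100 and 12645 by the adjusted p alone. The median log2 fold change of -2.22 became -1.76 with a pseudocount of 5, -1.37 with no filter, -3.01 at a mean of at least 100, -1.85 with at least 10 in every library, -2.32 at the same total, -2.41 with edgeR, -2.42 with DESeq2, -1.96 with GC and length trends removed, -1.94 for unique windows of 75 or 50 bases and -1.92 for 100 bases. Leaving out single libraries gave -2.20 to -2.07, and 28 to 32 members called lower. Rescaling to the same total shifted the median of all genes by -0.11, and changes are then relative to that shift.

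For the log2 ratio of the class sums, leaving out the member of highest mean changed H1 from -4.61 to -2.22, H2A from -2.21 to -1.45, H2B from -2.77 to -2.14, H3 from -2.31 to -1.75, H4 to -1.94 and all members from -3.05 to -2.43. Chosen after seeing the data, leaving out both Hist1h1c and Hist1h2bc gave -1.96. At the same total, H2B was at -2.88, H4 at -1.61 and all at -3.16. H2A was at -2.48 for tested members only, and for members with at least 50% unique windows H2A was at -2.61 and H4 at -1.38. The cause of these shifts was not tested.

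The replicate numbers were not found to pair the libraries. With the number as a replicate block, 3897 genes were called, 29 members were lower, and no named gene changed its call. The calls of members that hung on a setting were few. Hist1h2ae lost its call in limma without the trend (adjusted p = 0.0594) and without dexamethasone replicate 1. Hist1h4m fell under the filter without control replicate 1 or 3. Hist1h3e, Hist1h4c and Hist1h1e passed the limit in some alternatives, such as without dexamethasone replicate 3, at log2 fold changes of -1.30, -1.13 and -1.01.

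Genes that reversed were markers with values near 0. Sycp3, at -0.00027, was at 0.000414 with a pseudocount of 0.5, 0.0114 with TMM factors, 0.12 with quantile normalization, 0.0924, 0.10, 0.0181 and 0.0543 without control replicate 1 or 2 or dexamethasone replicate 1 or 3, and 0.23 with GC and length trends removed, with a range of -0.20 to 0.10 over all single libraries left out. Alas2, at -0.09, was at 0.0381 with quantile normalization, 0.0196 with DESeq2, and 0.0101 and 0.25 without control or dexamethasone replicate 1, with a range of -0.50 to 0.25 over all single libraries left out. Arhgdib, at 0.15, was at -0.0569 with quantile normalization.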
